A study of Mus musculus with 2 samples.

Results

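The Wnt genes followed here are the secreted Wnt ligands, their receptors on the cell surface, the secreted inhibitors that act between them, and Axin2, a feedback target of the pathway. Members were chosen by gene name only, from the non-control probes of an Agilent mouse array, and the rule itself used no measured value, although the group was proposed with earlier results of these data known. The rule took 45 genes, represented by 55 probes, of 24323 named genes on the array. They were 19 ligands (Wnt), 13 receptors (10 frizzled receptors, Fzd, with Lrp4, Lrp5 and Lrp6), 12 secreted inhibitors (Sfrp, Dkk, Wif1, Frzb, Sostdc1 and Sost) and Axin2.

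The data came from wild-type (WT) mice labelled postnatal day 0 (P0), with 1 array of tooth RNA and 1 array of skin RNA on the same slide. The study isolated tooth germs and skin at a stage its methods give as 1 day later, and the labels were followed here. No allele or treatment distinguished the groups, and the number of animals behind each RNA is not given in the sources used here. As there was 1 array per tissue, no difference could be tested, no p-value was calculated, and no value has a replicate check.

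Wnt ligands are lipid-modified secreted proteins that bind a frizzled receptor. Together with Lrp5 or Lrp6 they stop the breakdown of beta-catenin, which then acts with TCF/LEF factors on target genes, whereas some ligands signal without beta-catenin through receptors such as Ror2. Sfrp proteins, Frzb and Wif1 bind the ligands, and Dkk proteins, Sost and Sostdc1 bind the Lrp co-receptors. In tooth and in hair follicle development the pathway is needed from the first epithelial thickening onwards.

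Each probe is a single strand of 60 bases, and every member probe was printed once per array. The sequences below are those on which the reading of a member turned. Coordinates are those of the array file, in mm9. The probes of Wnt16 lie at chr6:22247804-22247863 (brighter probe) and chr6:22241135-22241194 and are shown because both gave a large difference in 1 direction. The Wnt1 probe at chr15:98623276-98623335 is shown because it was silent on both arrays while the gene's other probe was not. The Wnt4 probe at chr4:136851690-136852258 has ends 569 bases apart in the genome, more than its own length. Each of these probes could be read without a stop codon in at least 1 frame.
Wnt16 brighter probe: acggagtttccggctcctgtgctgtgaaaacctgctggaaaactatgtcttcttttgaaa
Wnt16 other probe: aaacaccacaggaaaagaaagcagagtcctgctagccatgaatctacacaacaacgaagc
Wnt1 silent probe: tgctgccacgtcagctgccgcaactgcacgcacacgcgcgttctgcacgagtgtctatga
Wnt4 other probe: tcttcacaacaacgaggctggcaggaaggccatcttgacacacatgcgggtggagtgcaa

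Probes of related members can share signal. Among all pairs of probes of different members, the longest run of identical bases was 14, found for Fzd2 with Fzd7 and for Wnt16 (other probe) with Lrp6. For Fzd2 (chr11:102467613-102467672) and Fzd7 (chr1:59541367-59541426) the probes also aligned without gaps over 50 bases, of which 42 were identical. Capitals mark these identical bases.
Fzd2 brighter probe: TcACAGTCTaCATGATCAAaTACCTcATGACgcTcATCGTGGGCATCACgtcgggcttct
Fzd7 other probe: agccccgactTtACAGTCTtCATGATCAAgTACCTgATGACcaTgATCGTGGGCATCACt

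Levels are given as log2 of the processed intensity after each array's 75th percentile over its non-control probes had been subtracted. A level of 0 therefore stands for a processed intensity of 428 for tooth and of 276 for skin. A difference is skin minus tooth, so negative values are higher in tooth, and a difference of 1 is 2-fold. The value after ± is the error that the extraction software gave the 2 spots, combined. For members well above background on both arrays it lay between 0.20 and 0.30. It covers the spots and not the spread between animals. A member counted as measured when the extraction software called its brightest probe well above background for at least 1 tissue. Where the probe was dim on the other array, the fold is a bound for the processing used here, written as at least N-fold. Wnt8b is an exception, described below. Levels of different genes are compared only in the summed levels of the marker lists.

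Of the 45 members, 42 were measured, 38 of them on both arrays, 3 on the tooth array only (Wnt3a, Wnt8b and Sost) and 1 on the skin array only (Wnt2). The ligands Wnt2b, Wnt8a and Wnt9b were dim on both arrays. At least 2-fold higher levels were found in tooth for 19 of the 42 members (45.2%), beside 15.5% of all 17409 named genes measured. In skin, 8 of the 42 (19.0%) were at least 2-fold higher, beside 14.2% of all genes. At 4-fold the counts were 10 for tooth (23.8%, beside 6.28% of all genes) and 5 for skin (11.9%, beside 7.41%). These counts use dim values as measured. With each dim value at its bound, Sost and Wnt2 drop out, which leaves 18 members for tooth and 7 for skin at 2-fold, and 10 and 4 at 4-fold. The median difference over the 42 members was -0.59, and over all measured genes it was -0.04. Scaling to the spike-in transcripts lowers every difference by 0.62, and subtraction of each array's median lowers every difference by 0.25. Spike-in scaling put 22 members past 2-fold towards tooth and 6 towards skin, beside 32.4% and 9.04% of all genes. In bulk tissue, fewer cells of a type and less RNA per cell cannot be told apart.

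**Figure D1:**
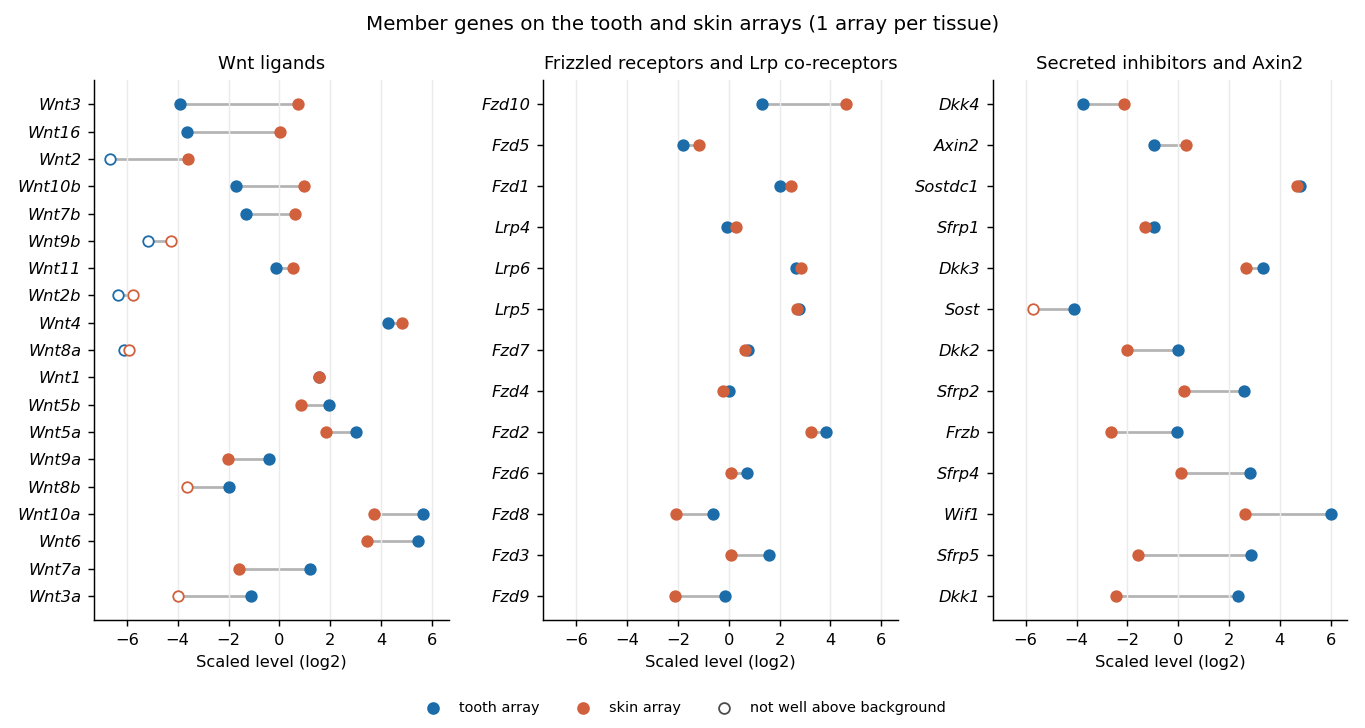
Scaled level (log2, x axis) of each of the 45 members in tooth (blue) and in skin (orange), with ligands, receptors and inhibitors in separate panels and open circles where the probe was not well above background. Genes are ordered by their difference. Most inhibitors lie to the right on the tooth array, ligands lie on both sides, and most receptors differ by less than 2-fold.

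The secreted inhibitors were mostly higher in tooth. All 12 were measured, and 11 of them had the higher level in tooth. For 8 (66.7%, beside 15.5% of all genes) that difference was at least 2-fold. Their median difference was -2.20. For 7 of them the difference was at least 4-fold, and only Dkk4 was at least 2-fold higher in skin.

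Dkk1, which binds Lrp5 and Lrp6 and blocks their use by Wnt ligands, had the largest difference of all members towards tooth. It had 2.37 in tooth and -2.45 in skin (-4.82 ± 0.25, 28.3-fold, probe at chr19:30621424-30621483). Of the 15271 named genes measured on both arrays, 39 had a difference at least as far towards tooth, Dkk1 included. Dkk2, a relative with the same receptors, also favoured tooth, with -0.01 in tooth and -2.03 in skin (-2.02 ± 0.23, 4.05-fold). Normexp background correction, which also adds a constant to every signal, gave smaller differences for both (-3.72 for Dkk1 and -1.34 for Dkk2), and Sfrp5, with -3.81, then had the largest of the members. Dkk3, a divergent member of the family that is not a typical Lrp antagonist, differed by less than 2-fold, from 3.32 in tooth to 2.68 in skin (-0.64 ± 0.20).

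Dkk4, known from epithelial placodes, ran the other way. It lay near background in tooth (-3.76) and was higher in skin (-2.14), a difference of 1.62 ± 0.29, or 3.08-fold. Under scaling to the spike-in transcripts the difference was 0.999 and under normexp correction it was 0.91, just below 2-fold in both cases.

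The inhibitors that bind Wnt ligands followed Dkk1 rather than Dkk4 in direction. Wif1 (chr10:120537079-120537138) was bright on the tooth array, with a level of 6.03, and had 2.62 in skin (-3.41 ± 0.20, 10.6-fold). Sfrp5 (chr19:42272509-42272568) had 2.88 in tooth and -1.57 in skin (-4.46 ± 0.22, 21.9-fold), and 56 genes measured on both arrays had a difference at least as far towards tooth, Sfrp5 included. Sfrp1, Sfrp2 and Sfrp5 form the subgroup of Sfrp proteins most alike in sequence, and they differed among themselves in these tissues. Sfrp2 had 2.60 in tooth and 0.22 in skin (-2.39 ± 0.21, 5.23-fold). Sfrp1 had -0.97 and -1.33 (-0.35 ± 0.22), within 2-fold.

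In the other subgroup, Sfrp4 (chr13:19724488-19724547) had 2.83 in tooth and 0.12 in skin (-2.70 ± 0.21, 6.51-fold). Frzb, also known as a cartilage-associated Wnt antagonist, had -0.07 in tooth and -2.63 in skin (-2.56 ± 0.27, 5.90-fold, and -1.49 under normexp correction). Both were past 4-fold in the same direction with the scaling used here.

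Sostdc1 and Sost are related proteins that bind the Lrp co-receptors, and Sostdc1 is known to restrain tooth number. Sostdc1 was high and nearly equal, with 4.78 in tooth and 4.66 in skin (-0.12 ± 0.20), and its other probe gave -0.41. Sost, the osteocyte product sclerostin, was close to background in tooth (-4.12) and not well above background in skin (-5.73). Its bound was under 1, so no fold is given, and its place among the 8 inhibitors past 2-fold rests on the dim skin value.

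**Figure D2:**
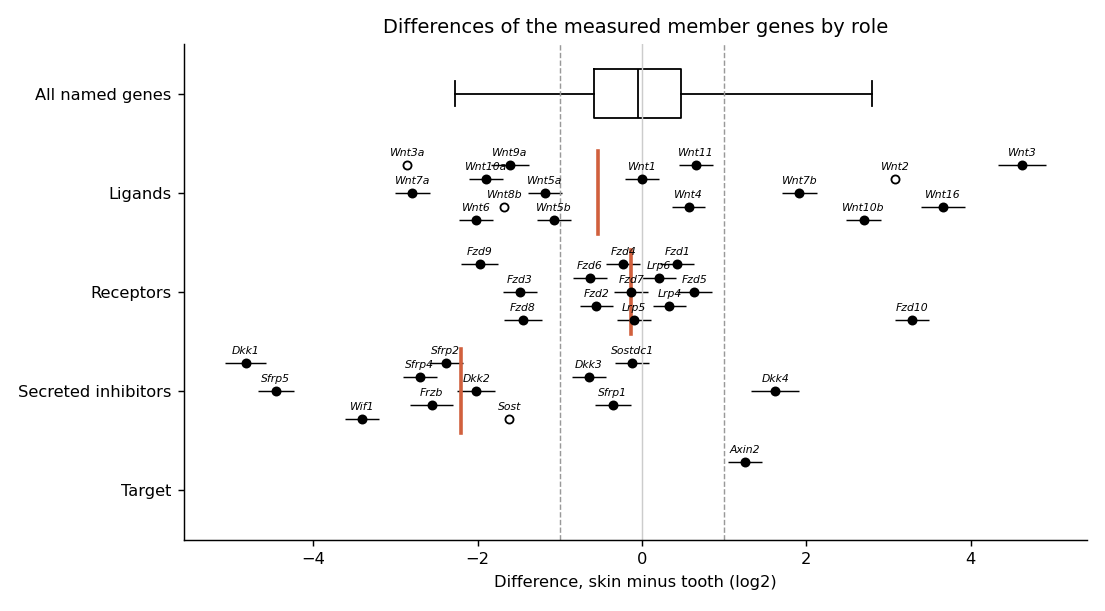
Difference between the arrays (skin minus tooth, log2, x axis) for the 42 measured members by role, with dashed lines at 2-fold. Filled circles are members well above background on both arrays with the combined spot error, open circles are members dim on 1 array, orange bars are the medians of each role, and the box at the top shows median, quartiles and percentiles 5 to 95 of all measured genes. The median of the inhibitors is -2.20, those of the ligands and receptors are -0.53 and -0.13, and that of all genes is -0.04.

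The ligands divided between the tissues. Of the 16 measured, 8 had higher levels in tooth, all by at least 2-fold, and 8 had higher levels in skin, 5 of them by at least 2-fold. At least 2-fold, these are 50.0% and 31.2% of the measured ligands, beside 15.5% and 14.2% of all genes. The 8 counted for skin include Wnt1, whose difference was only 0.0042 ± 0.20. The 5 include Wnt2, which was dim in tooth, and with dim values at their bound the count was 4. The median difference was -0.53. It was 0.0042 for the 13 ligands well above background on both arrays, 0.19 without a filter on dim probes and -1.16 under spike-in scaling, so no direction is given for the ligands as a class.

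Among ligands measured on both arrays, the largest differences towards skin were those of Wnt3, Wnt16 and Wnt10b. Wnt3 (chr11:103679038-103679097), an activator of beta-catenin signalling, had -3.90 in tooth, close to background, and 0.73 in skin. The difference of 4.63 ± 0.30 was 24.7-fold and the largest of all members towards skin, and 165 genes measured on both arrays had a difference at least as far towards skin, Wnt3 included. Under normexp correction it was 3.04, and Fzd10, with 3.097, then had the largest. Wnt10b (chr15:98602209-98602268), a known marker of hair placodes, had -1.72 in tooth and 0.97 in skin (2.70 ± 0.21, 6.49-fold). Wnt7b, a ligand of several epithelia, had -1.32 and 0.60 (1.92 ± 0.21, 3.78-fold).

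Wnt16 was higher in skin by both probes printed above. The brighter probe had -3.65 in tooth and 0.01 in skin (3.67 ± 0.27, 12.7-fold). The other probe was not well above background in tooth (-4.89) and had -0.32 in skin, at least 18.4-fold higher there. Normexp correction gave 2.38 for the brighter probe. The study printed Wnt16, Wnt8b and Lgr5 with values of these arrays in lists of its own, so their directions are not independent of what the study showed. Wnt2 was not well above background in tooth and only just so in skin (-3.58), which made it at least 1.91-fold higher in skin, a bound below the 2-fold threshold.

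Wnt10a and Wnt6, whose genes are neighbours, were both higher in tooth. Wnt10a (chr1:74850633-74850692), a gene whose loss in humans leads to missing teeth and sparse hair, had 5.63 in tooth and 3.74 in skin (-1.89 ± 0.20, 3.72-fold). Wnt6 (chr1:74831461-74831520) had 5.47 and 3.45 (-2.02 ± 0.20, 4.05-fold). Both ligands were well above background in skin as well, so the tissues differed in the amount measured and not in whether signal was found.

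Among ligands measured on both arrays, the largest difference towards tooth was that of Wnt7a. Wnt7a, known for setting dorsal identity in the limb, had 1.20 in tooth and -1.59 in skin (-2.79 ± 0.22, 6.93-fold). Wnt3a had -1.13 in tooth and was not well above background in skin, which made it at least 6.07-fold higher in tooth. Wnt8b was at least 3.19-fold higher in tooth by its brighter probe, which had -1.98 there, and its other probe was also well above background in tooth only. Wnt9a had -0.41 and -2.02 (-1.61 ± 0.23, 3.05-fold). Under normexp background correction Wnt9a (-0.95) and Wnt8b (-0.35) were below 2-fold. Wnt3a then gave -1.09, a smaller difference than its bound of 6.07-fold.

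Wnt4, Wnt5a, Wnt5b and Wnt11 are ligands known for signalling without beta-catenin, and they were divided, with 2 higher in each tissue. Wnt5a, the main ligand of Ror2, had 3.02 in tooth and 1.84 in skin (-1.18 ± 0.20, 2.26-fold), and Wnt5b had 1.94 and 0.86 (-1.07 ± 0.20, 2.10-fold). Under spike-in scaling these were -1.80 and -1.70. Wnt11 had -0.12 in tooth and 0.53 in skin (0.66 ± 0.21). Wnt4, bright on both arrays, had 4.26 and 4.83 (0.57 ± 0.20), while its other probe, printed above, gave 0.05, and under spike-in scaling the brighter probe gave -0.05.

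The probes of Wnt1 went apart. The brighter probe (chr15:98624201-98624260) had 1.56 in both tissues, a difference of 0.0042 ± 0.20 that was negative after the median shift, under spike-in scaling and under normexp correction. The probe printed above gave no signal well above background, with processed intensities of 6.16 in tooth and 4.82 in skin. The level given for Wnt1 therefore rests on 1 probe that the gene's other probe did not share.

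The ligand genes form 4 pairs that lie within 200 kb of each other, judged by the distance between their probes in mm9, and these pairs did not all move as 1. Wnt6 and Wnt10a, 19.2 kb apart on chromosome 1, were both higher in tooth by similar amounts. Wnt3a and Wnt9a, 85.4 kb apart on chromosome 11, were both higher in tooth. Wnt3, by contrast, was 24.7-fold higher in skin, while Wnt9b, 90.2 kb away on chromosome 11, was dim on both arrays. Wnt10b was 6.49-fold higher in skin, and the brighter probe of Wnt1, 21.1 kb away on chromosome 15 by the nearer of its probes, showed no difference.

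Most receptors stayed within 2-fold, as did most of all genes measured. All 13 were measured on both arrays, and 9 of them differed by less than 2-fold, with a median difference of -0.13. Fzd10 alone was at least 2-fold higher in skin (7.69% of the receptors, beside 14.2% of all genes). In tooth, 3 frizzled receptors were at least 2-fold higher (23.1%, beside 15.5% of all genes). Under spike-in scaling the number past 2-fold in tooth was 5, with Fzd2 (-1.18) and Fzd6 (-1.26) added, beside 32.4% of all genes. The number with any higher level in skin then dropped from 5 to 2, which were Fzd10 and Fzd5 (0.017). Both counts take Fzd5 by its brighter probe, although its probes disagreed in direction.

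Fzd10 (chr5:129109798-129109857) had 1.31 in tooth and 4.60 in skin (3.29 ± 0.20, 9.75-fold). It was clearly measured in both tissues, so neither value rests on background. Its relative Fzd9 (chr5:135724815-135724874) had the opposite order, with -0.15 in tooth and -2.12 in skin (-1.97 ± 0.23, 3.93-fold). Fzd3, a receptor known from axon guidance and planar cell polarity, had 1.58 and 0.10 (-1.48 ± 0.21, 2.80-fold). Fzd8 had -0.62 and -2.07 (-1.45 ± 0.23, 2.73-fold), and -0.78 under normexp correction.

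The other frizzled receptors lay within 2-fold. Fzd6, which orients hairs in the skin, had 0.72 in tooth and 0.09 in skin (-0.63 ± 0.21). Fzd1 had 2.01 and 2.44 (0.43 ± 0.20, and -0.19 under spike-in scaling), and Fzd4 had -0.01 and -0.24 (-0.23 ± 0.21). Fzd2 had 3.81 and 3.25 (-0.55 ± 0.20) and Fzd7 had 0.76 and 0.63 (-0.13 ± 0.20). The 2 probes of Fzd2 and Fzd7 aligned above gave -0.55 and -0.57, and the genes' remaining probes gave -0.28 and -0.13.

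Fzd5 was the member whose probes disagreed in direction. The probe with the higher mean (chr1:64781972-64782030) had -1.80 in tooth and -1.16 in skin (0.64 ± 0.22), and the other (chr1:64779479-64779538) had -1.52 and -1.96 (-0.43). These differ from each other by 1.07, more than 2-fold, so no direction is given for Fzd5.

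The Lrp co-receptors were nearly equal. Lrp5 had 2.77 in tooth and 2.67 in skin (-0.10 ± 0.20). Lrp6 had 2.63 and 2.84 (0.21 ± 0.20), with 0.44 by its other probe and negative values under spike-in scaling (-0.42) and after the median shift. Lrp4, which binds Sost and Sostdc1 and is also the agrin receptor of the neuromuscular junction, had -0.06 and 0.28 (0.34 ± 0.21, and -0.29 under spike-in scaling). Lrp5 and Lrp6, on which Dkk1 acts, thus stayed within 2-fold between tissues whose Dkk1 levels stood 28.3-fold apart.

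**Figure D3:**
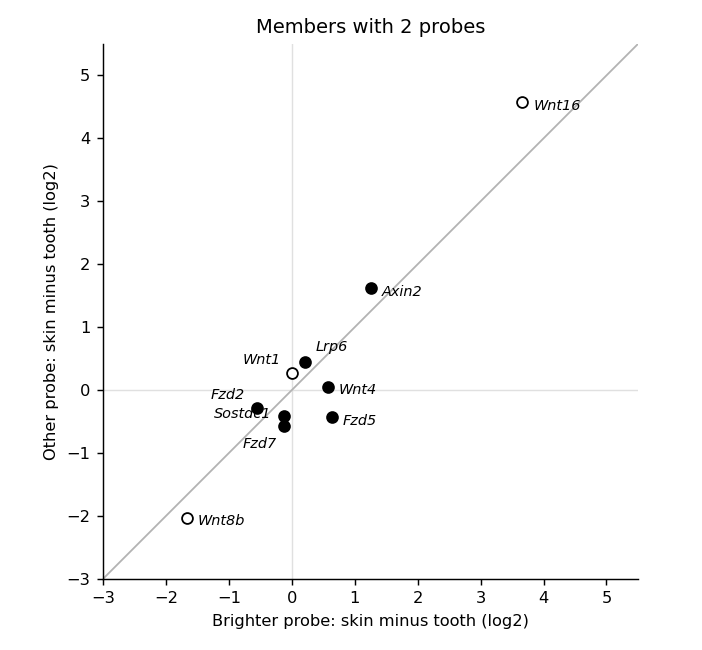
Difference (skin minus tooth, log2) by the brighter probe (x axis) and by the other probe (y axis) for the 10 members with 2 probes, open where either probe was dim on an array and plotted at the measured dim value, with the line of equality. Fzd5 lies on opposite sides of 0 for its 2 probes, while Wnt16 and Axin2 keep their direction. Wnt8b keeps it by the measured values only, as both its probes were dim in skin and the other probe had a bound of just 1.03-fold.

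Axin2, a scaffold of the complex that degrades beta-catenin and a commonly used readout of the pathway, was higher in skin by both probes. The brighter probe (chr11:108812034-108812093) had -0.96 in tooth and 0.29 in skin (1.25 ± 0.21, 2.38-fold). The other had -2.98 and -1.36, a difference of 1.62. Under spike-in scaling the brighter probe gave 0.63, the same direction but below 2-fold.

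Other genes of the pathway were taken from a list of 60 that held ligand processing, further receptors, the cytoplasmic complex, nuclear factors, targets and polarity genes. Of these, 59 were on the array under the listed name and 56 were measured. In skin 9 were at least 2-fold higher (16.1%) and in tooth 8 (14.3%), near the 14.2% and 15.5% of all genes, with a median of -0.06. After the median shift the counts were 6 and 12, beside 11.6% and 20.1% of all genes, and under spike-in scaling they were 5 and 22, beside 9.04% and 32.4% of all genes.

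Among the genes of this list measured on both arrays, the largest differences towards skin were those of Kremen2, Lgr5, Sp5 and Ctnnbip1. Kremen2, a receptor that acts with Dkk proteins to remove Lrp6 from the surface, had -2.98 in tooth and 1.98 in skin (31.1-fold). Lgr5, an R-spondin receptor and stem cell marker, had -1.99 and 1.97 (15.6-fold), with a second probe dim on both arrays. Sp5, a direct target factor, had -3.33 and 0.50 (14.2-fold), and Ctnnbip1, which keeps beta-catenin from TCF factors, had 2.92 and 5.12 (4.60-fold). Kremen2 stood on the opposite side from Dkk1, by a difference of 4.96 against -4.82. Kremen1, also in the list and named after its values were seen, did not, with 3.62 in tooth and 3.52 in skin (-0.10).

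Towards tooth, the largest differences measured on both arrays by a gene's brightest probe were those of Serpinf1, Ror2, Dact1 and Celsr1. Tle2, named after its values were seen, had -0.72 by its brightest probe and -3.21 by its other probe. Dact2, dim in skin, had a bound of at least 7.57-fold towards tooth, and Dact2 was also chosen after its value was seen. Serpinf1, an anti-angiogenic secreted protein also described as an inhibitor of Lrp6, had 6.58 in tooth and 1.92 in skin (25.3-fold), and -4.93 by its other probe. Ror2, a Wnt5a receptor, had 2.07 and -0.08 (4.41-fold). Dact1, a dishevelled-binding protein, had 0.62 and -1.24 (3.64-fold), and -2.71 by its other probe. Celsr1, a polarity cadherin, had 6.13 and 4.40 (3.31-fold).

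Markers of the labelled tissues were found on each array. All 5 ameloblast markers were at least 2-fold higher in tooth, 4 of them not well above background in skin. Their summed level was 11.1 in tooth and -1.99 in skin. A summed level is log2 of the sum of the unlogged levels, so the brightest marker weighs most. The 5 markers each of odontoblasts and bone (8.27 and -0.99) and of dental mesenchyme (4.94 and 1.42) were also all higher in tooth. All 5 epidermis markers (2.59 and 11.9), all 5 adipocyte markers (0.60 and 4.16) and all 4 measured skeletal muscle markers (2.05 and 5.17) were at least 2-fold higher in skin. So were 4 of 5 hair follicle markers (5.03 and 9.17). The other, Msx2, was 5.28-fold higher in tooth and, with 5.01 there, made up most of the tooth sum. Of the 5 basal epithelium markers (9.13 and 10.3) 2 were past 2-fold towards skin, and of the 5 dermal fibroblast markers 1 was past it towards skin and 2 towards tooth (9.04 and 6.91). For endothelium (5.002 and 5.26), 3 of 5 were at least 2-fold higher in tooth, while Kdr (4.78 and 5.21) made up most of both sums. For Schwann cells (3.09 and 3.68), 2 of 5 were past 2-fold towards skin and 1 towards tooth, and for macrophages (4.80 and 4.23) 1 of 5 was past it towards tooth. The part of these cell types in the differences of the Wnt genes was not tested.

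The promoter of Dkk1 was examined because Dkk1 is a known target of TCF/LEF factors and had a large difference towards tooth. The RefSeq promoter table (GRCm38.p6) held 29 of the 45 members. The letters CTTTG followed by AA, AT, TA or TT, which TCF/LEF factors recognise, were searched on both strands of the 250 bases before each start. At least 1 of them was found for Dkk1, Fzd7, Wnt11 and Wnt5b, 4 of the 29 members, beside 14.8% of all 32851 promoters in the table. Dkk1 was the only member with 2 of the 4, the form ending in AA starting 117 bases and the form ending in TT starting 98 bases before the start. The form ending in AA was in 4.46% and the form ending in TT in 5.03% of all promoters. The share of all promoters with 2 of the forms is not given here, so how unusual the pair is remains unknown. The window at chr19:30549497-30549746, minus strand, is shown with these letters in capitals. A match describes the letters only, and binding was not measured here.
Dkk1 promoter: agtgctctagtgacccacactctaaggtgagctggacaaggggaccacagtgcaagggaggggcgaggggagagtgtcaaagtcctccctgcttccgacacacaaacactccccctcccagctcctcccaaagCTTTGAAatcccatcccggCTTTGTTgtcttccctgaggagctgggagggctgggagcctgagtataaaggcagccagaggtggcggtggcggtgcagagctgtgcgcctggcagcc

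**Figure D4:**
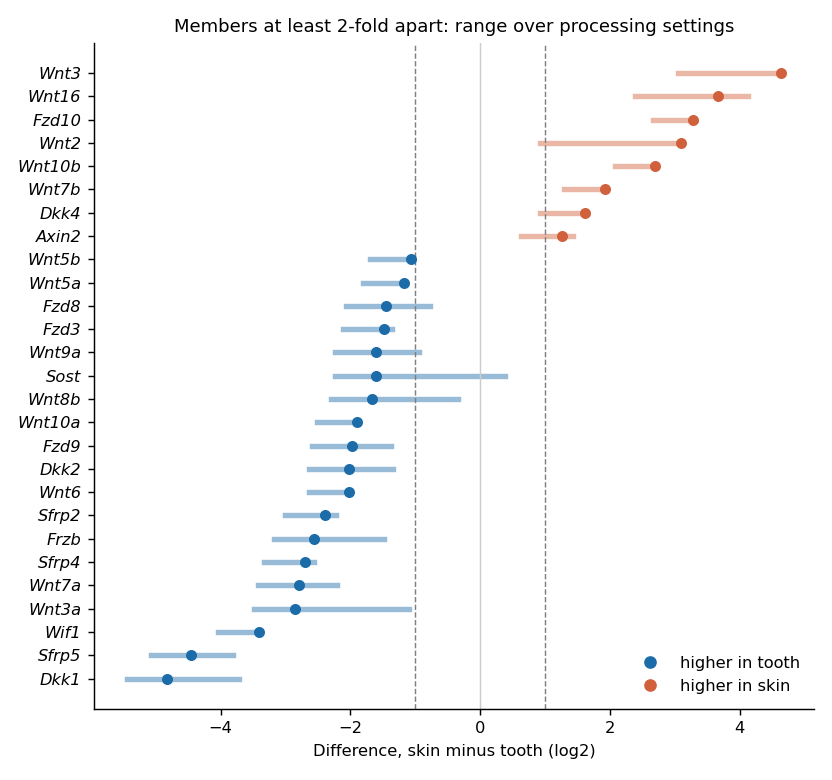
Difference (skin minus tooth, log2, x axis) of the 27 members at least 2-fold apart, with the value as reported (point) and the range over the reported setting and the alternatives (bar), coloured by the tissue with the higher level and with dashed lines at 2-fold. Wnt3, Wnt16, Fzd10, Wnt10b and Wnt7b stay past 2-fold in skin, and 15 of the 19 members higher in tooth stay past it in tooth.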

How the data were processed

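Total RNA of tooth and skin was labelled with Cy3 and hybridised to SurePrint G3 Mouse GE 8x60K arrays. The deposited spot values were linear intensities from Agilent Feature Extraction 10.7.3.1, already background-subtracted and detrended, with the software's error for each spot. The authors also deposited a table in which each value was the ratio of the processed intensity to 1 factor per array (431 for tooth, 275 for skin).

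From 62976 spots, 3671 controls and outlier spots were left out, and spots of a probe were averaged as log2 values. The 75th percentile was subtracted. A gene stood for its probe with the highest mean, and a probe was detected when over 0.5 of its spots were well above background. Long non-coding probes and probes without a gene name were not used. A dim value below the lowest detected level (-4.52 in tooth, -3.73 in skin) was raised to that level for its bound. One above it was kept as measured. All 55 member probes matched the same symbol in RefSeq (GRCm38.p6), which was used for names and promoters only, and exons and UTRs were not analysed here. No member spot was saturated or an outlier.

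No test was run, and the number of arrays limits the precision. Scatter of repeated spots gave a difference an SD of 0.12. The calculation was tested on simulated data. Alternatives were 10 settings of scaling, background (limma 3.58.1), detection and probe choice. Every measured member could be named, and of other pathway genes the 4 largest measured on both arrays in each direction. The member rule uses names only, but the members and lists were chosen with earlier results of these data known.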

Additional observations from a re-analysis of the deposited data

Results flagged for a closer look

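Dkkl1 was singled out after its values were seen, as a large signal in a gene that the member rule did not take. It is named for its likeness to the Dkk family, with most likeness to Dkk3, and is best known from the testis. The tooth array gave a level of -2.15 and the skin array 4.78, which is 6.93 apart (log2, 122-fold), and 58 of the genes measured on both arrays had a difference at least as far towards skin, Dkkl1 included (probe at chr7:52462916-52462975, mm9). It was well above background on both arrays, and there was no replicate array.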

How the results depend on the processing

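No paired analysis was possible because each tissue had 1 array, and for the same reason no replicate could be left out. The alternatives tried numbered 10. The counts of members past 2-fold, 8 in skin and 19 in tooth, ranged from 6 to 8 and from 15 to 22. Of the members past 2-fold, 5 of the 8 in skin and 15 of the 19 in tooth stayed past it in every alternative that gave a value. The exceptions were Axin2, Dkk4 and Wnt2 in skin, and Fzd8, Sost, Wnt8b and Wnt9a in tooth. Sost turned to 0.079 under normexp correction and to 0.39 with dim values at their bound, and Wnt2 fell to 0.92 and 0.94 in these settings. Spike-in scaling lowered every difference by 0.62 and put 9.04% of all genes past 2-fold towards skin and 32.4% towards tooth. Medians under it were -1.16 for ligands, -0.75 for receptors, -2.82 for inhibitors and -0.69 for the other pathway genes, beside -0.67 for all genes. After the median shift they were -0.78, -0.38, -2.45 and -0.31, beside -0.29 for all genes. Normexp correction gave -0.19 for ligands and -1.41 for inhibitors, beside 0.034 for all genes. The median of the ligands changed sign to 0.19 without a filter on dim probes and with lenient detection, which both add the 3 dim ligands, and to 0.0042 when only ligands well above background on both arrays were kept, where the inhibitors had -2.39. Of the 416 values of single members, 318 moved by less than their spot error. This count is raised by settings that change only which members are kept and so cannot move a value. More than their spot error was moved by 33 of 42 values after the median shift and by 40 of 42 under spike-in scaling. Under normexp correction 18 of 42 did so and 1 more reversed. Values close to the lowest detected signal, such as those of Wnt3, Wnt16 and Dkk4 in tooth, carry little information on the size of a fold.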
